A study of Mus musculus with 8 samples.

Results

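Genes of interferon signalling and nucleic acid sensing were compared between primordial germ cell-like cells made in culture and primordial germ cells of the fetal gonad. The set held 38 named mouse genes, chosen for their roles in this pathway and with earlier results of these data known. Of the 38, 36 were among the 21950 genes of the count table. *Irf3* and *Ifit1* had no row and were not analysed here. Of the 36 genes, 30 exceeded 3 counts in at least 1 library, and 6 (*Dhx58*, *Tlr3*, *Usp18*, *Ifit3*, *Mx1* and *Gbp2*) had 3 counts or fewer in every library. The table lists *Tmem173*, which encodes STING, under its newer symbol *Sting1*.

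The d6PGCLC group held 4 pools of primordial germ cell-like cells (PGCLCs) derived from 1 female iPSC line, which was made from adult tail tip fibroblasts and carries the Blimp1-Venus and Stella-ECFP reporters (BVSC-iPSCs). These cells were induced from epiblast-like cells with BMP4, SCF, LIF and EGF and were sorted as positive for both reporters at the sixth day of induction. The E12.5 PGC group held 4 pools of primordial germ cells (PGCs) from gonads of female C57BL/6J embryos at E12.5, sorted for SSEA1 and integrin β3. Each pool came from an independent experiment and gave 1 poly(A) RNA library. The source of the cells, the growth factors and the sorting markers all differ between the groups, and the genetic background may differ. Citing earlier work, the paper likens d6PGCLCs to migrating PGCs, a stage before E12.5, so that developmental stage differs as well. The parts of all these in any difference cannot be told apart.

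Between 7991437 and 12024841 reads were counted per library, so that 3 counts corresponded to 0.249 to 0.375 CPM (the count of a gene scaled to a common library total), which was taken as the limit of detection. This limit covers counting error only. Summed over 10 germ cell markers, expression was 3947 to 4552 CPM in d6PGCLCs and 4512 to 5046 CPM in E12.5 PGCs, with 5 of the 10 higher in d6PGCLCs (*Prdm1*, *Prdm14*, *Tfap2c*, *Dppa3* and *Pou5f1*, log2 fold changes from 0.65 to 1.21) and 3 lower (*Dnd1*, *Ddx4* and *Dazl*, log2 fold changes -0.59, -4.42 and -5.07). Leukocytes are rich in many of the genes described here. The 11 leukocyte markers summed to 2.08 to 4.60 CPM in d6PGCLCs and 2.62 to 4.10 CPM in E12.5 PGCs, and *Ptprc*, *Adgre1*, *Aif1*, *Lyz2* and *C1qa* had 3 counts or fewer in every library. Among the 11, *Csf1r* was higher in d6PGCLCs (69 counts against 0), and *Tyrobp* and *Cd52* were lower. E12.5 PGC replicate 2 stood apart in the 16 genes of the dissociation response, which summed to 1616 CPM there and to 801 to 945 CPM in the other 7 libraries. Of these 16 genes, 9 were lower in d6PGCLCs, among them *Hspa1a* and *Hspa1b* (log2 fold changes -6.42 and -5.16), and 3 were higher (*Junb*, *Zfp36* and *Nr4a1*, log2 fold changes 1.83, 1.75 and 1.60). E12.5 PGC replicate 2 also had 26.0 CPM of *Hbb-y*, an embryonic globin. The 7 endothelial markers summed to 63.6 to 89.8 CPM in d6PGCLCs and 27.2 to 47.0 CPM in E12.5 PGCs, with *Cdh5* and *Egfl7* higher in d6PGCLCs and *Kdr*, *Tie1* and *Emcn* below 0.3 CPM on average in both. The 7 markers of other lineages of the culture summed to 14.7 to 34.1 CPM in d6PGCLCs and 52.0 to 63.4 CPM in E12.5 PGCs, 5 of them being lower in d6PGCLCs. The 6 megakaryocyte and platelet markers summed to 7.1 to 10.9 CPM in d6PGCLCs and 9.4 to 15.8 CPM in E12.5 PGCs. Of these, *Pf4*, *Ppbp* and *Gp1bb* were lower in d6PGCLCs and none was higher. *Pf4* and *Ppbp* had 0 counts in d6PGCLCs and 20 and 32 counts in E12.5 PGCs, all in replicates 1 and 2. The part of other cell types and of the dissociation response in the differences below was not tested.

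Interferons are secreted proteins that cells release upon sensing foreign or misplaced nucleic acid. Type I interferons bind the receptor chains IFNAR1 and IFNAR2, and interferon γ binds IFNGR1 and IFNGR2. The receptors signal through Janus kinases to STAT and IRF transcription factors, which bind the interferon-stimulated response element (ISRE) or the γ-activated site (GAS) at target genes. Pluripotent and early embryonic cells are known for a weak interferon response, and germ cells are known for transcribing transposable elements, whose RNA and DNA can reach the same sensors.

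Many of the named genes were expressed at low levels in both cell types, and more of them were higher than lower in d6PGCLCs. In RPKM (CPM per kilobase of counted exon, which permits levels of different genes to be compared), the median of the 36 genes was 0.763 in d6PGCLCs and 0.403 in E12.5 PGCs, against 0.642 and 0.615 RPKM over all genes of the table. There were 18 genes below 1 RPKM in both cell types, whereas 6 (*Bst2*, *Irf1*, *Trim25*, *Samhd1*, *Mavs* and *Adar*) exceeded 10 RPKM in both. *Bst2*, which encodes the virion-retaining membrane protein tetherin, had the highest level of the set, with 132 and 126 RPKM in d6PGCLCs and E12.5 PGCs.

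**Figure D1:**
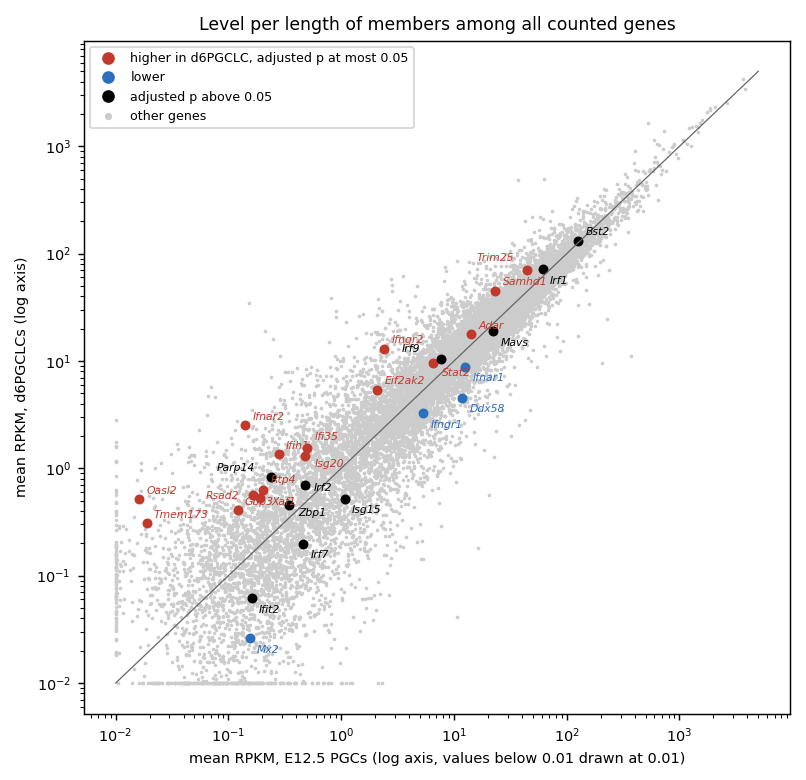
Mean RPKM in d6PGCLCs (vertical, log axis) against mean RPKM in E12.5 PGCs (horizontal, log axis), each over 4 libraries. Grey points are all genes over 3 counts in a library, coloured points are the 30 interferon and sensing genes that exceeded it, and the line marks equal levels. *Oasl2*, *Tmem173* and *Ifnar2* lie far above the line. Of the genes above 10 RPKM, *Ifngr2* lies above it and *Ddx58* below it, and *Bst2* and *Irf1* lie close to it.

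By edgeR's quasi-likelihood test over all genes, 16 of the 36 genes were higher in d6PGCLCs at an adjusted p of at most 0.05, 4 were lower and 16 did not pass. Over all genes of the table, 16.1% were higher and 15.4% were lower, and over the 14216 genes that exceeded 3 counts in a library, 24.7% and 23.7%. With a log2 fold change of 2 or more in either direction required as well, 5 genes were higher (*Ifnar2*, *Ifngr2*, *Ifih1*, *Tmem173* and *Oasl2*) and *Mx2* was lower, where 3.24% and 3.37% of all genes passed. With a prior count of 2, *Tmem173* had a log2 fold change of 1.98 and 4 genes were higher at this size. The call of *Mx2* rested on few counts and was lost in 9 of the 17 alternative analyses that gave it a value. The values of the 4 libraries of each group did not overlap for 16 genes that were higher and 4 that were lower, a pattern that 15.4% and 14.8% of all genes showed. The median log2 fold change of the 30 genes over 3 counts was 0.59, against -0.013 over all genes over 3 counts, and it was 0.83 without E12.5 PGC replicate 2. Of the 16 higher genes, 9 were below 5 CPM in both cell types. In bulk libraries, a difference in the share of cells that express a gene and a difference in RNA per cell cannot be told apart.

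**Figure D2:**
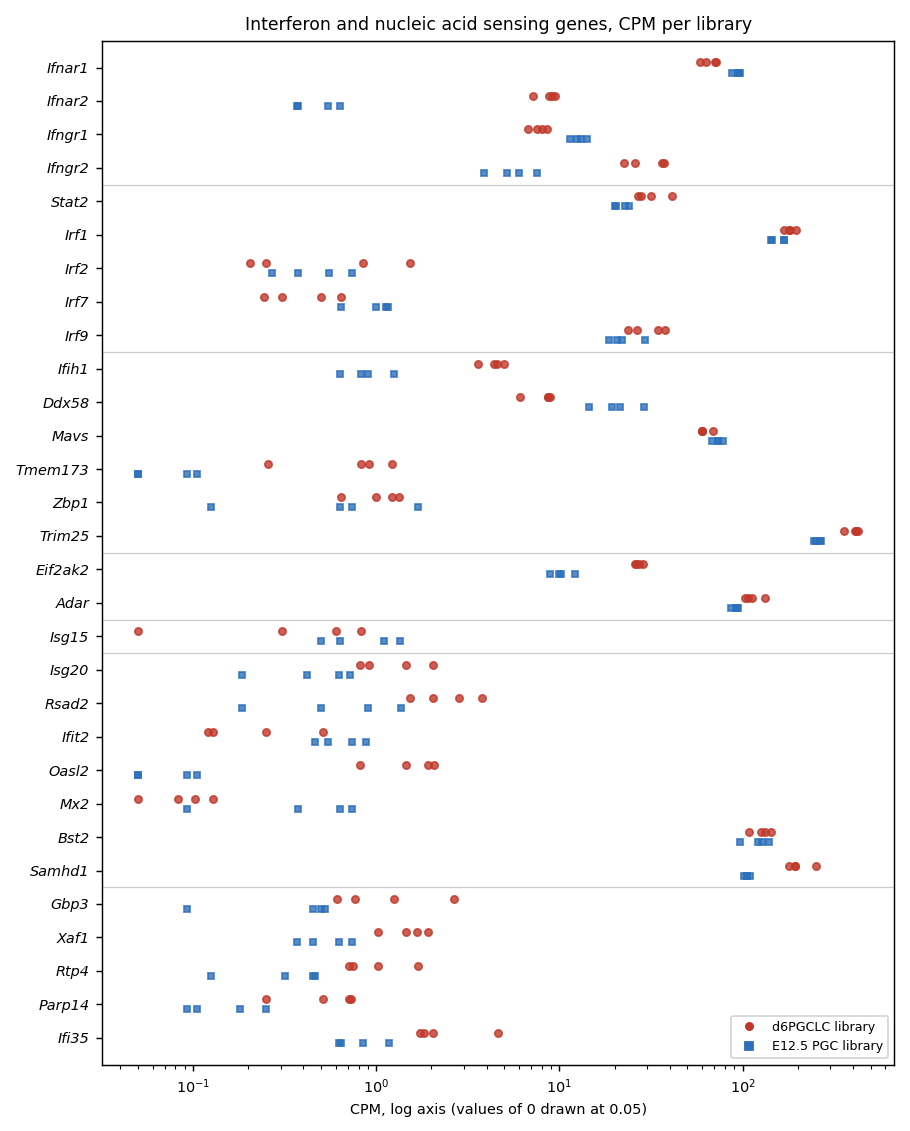
CPM (log axis) of the 30 genes over 3 counts in each of the 4 d6PGCLC libraries (red circles) and the 4 E12.5 PGC libraries (blue squares), ordered by role and separated by grey lines. Values of 0 are drawn at 0.05 CPM. The red and blue points are separate for all 4 receptor chains, with red higher for *Ifnar2* and *Ifngr2* and lower for *Ifnar1* and *Ifngr1*.

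Promoter windows were searched for the letters of the elements that interferon-activated factors bind. RefSeq windows of GRCm38.p6, from 250 bases before to 50 bases after an annotated start, were given for 30 of the 38 genes, in 38 windows. *Dhx58*, *Mx1*, *Mx2*, *Parp14*, *Rtp4*, *Tmem173*, *Usp18* and *Zbp1* had no window. The letters of the ISRE core, GAAA repeated after a gap of any 2 bases and searched on both strands, were present for 12 of the 30 genes, and in 31.6% of their windows against 3.44% of 32851 windows of all genes. GAS letters, TTCNNNGAA, which read alike on both strands, were present for 11 of the 30 genes, and in 28.9% of windows against 8.3% of all. The pathway genes were named partly because interferon induces them, so that this richness describes the set. The windows below hold ISRE letters and are shown because they come from genes that did not pass the test (*Isg15*, *Bst2*), were higher (*Rsad2*, *Gbp3*, *Stat2*, *Ifih1*, *Eif2ak2*) or were lower (*Ddx58*) in d6PGCLCs. Sequences are from RefSeq, written 5′ to 3′ along the gene's strand, with the bases of each ISRE match in capitals. Where the capitals begin with TTTC, the match is on the opposite strand. In *Isg15*, 3 matches overlap, and in *Bst2* and *Gbp3*, 2 overlap.
Isg15: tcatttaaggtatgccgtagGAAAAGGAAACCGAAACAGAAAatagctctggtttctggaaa
Bst2: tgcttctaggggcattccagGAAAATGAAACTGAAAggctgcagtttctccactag
Rsad2: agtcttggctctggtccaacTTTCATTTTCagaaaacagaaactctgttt
Gbp3: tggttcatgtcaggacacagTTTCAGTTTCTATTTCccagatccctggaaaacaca
Stat2: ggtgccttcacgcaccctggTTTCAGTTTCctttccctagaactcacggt
Ifih1: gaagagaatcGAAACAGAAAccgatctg
Eif2ak2: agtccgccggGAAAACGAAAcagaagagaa
Ddx58: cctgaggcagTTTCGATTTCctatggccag

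These stretches lie at chr4:156200855-156200916 for *Isg15*, chr8:71537567-71537622 for *Bst2* and chr12:26456543-26456592 for *Rsad2*, all on the minus strand, and at chr3:142559979-142560034 for *Gbp3* and chr10:128270256-128270305 for *Stat2* on the plus strand. In the shorter stretches of *Ifih1* (chr2:62646206-62646233), *Eif2ak2* (chr17:78882535-78882564) and *Ddx58* (chr4:40239804-40239833), on the minus strand, the match follows the start. Among genes with a window, ISRE letters were found for 5 of 14 that were higher, 1 of 3 that were lower, 3 of 8 that did not pass the test and 2 of 3 with 3 counts or fewer in every library. The remaining match was at *Ifit1*. GAS letters were found for 6 of the 14 higher genes, 1 of the 3 lower genes and 4 of the 8 that did not pass. A match describes letters in the window and not a bound site, and a gene without a match lacks only these letters in its window.

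The chains of the type I receptor, and likewise those of the interferon γ receptor, differed in opposite directions between the cell types. *Ifnar2*, the signalling chain that anchors JAK1 at the type I receptor, was 17.5-fold higher in d6PGCLCs, and *Ifngr2*, the second chain of the interferon γ receptor, was 5.36-fold higher. In contrast, *Ifnar1* and *Ifngr1* were 1.416- and 1.64-fold lower in d6PGCLCs. All 4 genes passed the test, with no overlap of libraries between the cell types. Among genes that exceeded 3 counts, 24.7% were higher and 23.7% were lower (16.1% and 15.4% of all genes). Groups did not overlap for 15.4% of all genes in the higher and 14.8% in the lower direction.

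Per library, in replicate order here and below, *Ifnar2* measured 9.44, 9.06, 8.80 and 7.15 CPM in d6PGCLCs and 0.374, 0.631, 0.369 and 0.542 CPM in E12.5 PGCs. All d6PGCLC libraries were high, and the E12.5 PGC values lay close to the limit of detection. The means were 8.61 ± 1.01 against 0.479 ± 0.129 CPM (SD, n = 4 libraries here and for all means below), with log2 fold change 4.13, SE 0.34, adjusted p = 4.53e-10. *Ifnar2* shares exons on its strand with the annotated gene *Gm21970*, so that its count may include reads of that gene. *Ifngr2* measured 22.5, 26.0, 36.5 and 37.1 CPM in d6PGCLCs and 3.87, 7.58, 5.16 and 6.05 CPM in E12.5 PGCs, and no d6PGCLC value came down to those of E12.5 PGCs. Its means were 30.5 ± 7.41 against 5.66 ± 1.56 CPM (log2 fold change 2.42, SE 0.21, adjusted p = 6.39e-09).

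*Ifnar1*, the chain that binds TYK2, measured 58.2, 63.0, 71.5 and 71.0 CPM in d6PGCLCs and 93.9, 87.4, 95.1 and 97.3 CPM in E12.5 PGCs. All d6PGCLC libraries were below all E12.5 PGC libraries, by a small margin relative to their level (65.9 ± 6.47 against 93.4 ± 4.23 CPM, log2 fold change -0.50, SE 0.10, adjusted p = 0.000449). *Ifngr1*, the ligand-binding chain for interferon γ, measured 6.76, 7.53, 8.05 and 8.61 CPM in d6PGCLCs and 14.1, 12.52, 13.1 and 11.4 CPM in E12.5 PGCs (7.74 ± 0.783 against 12.8 ± 1.14 CPM, log2 fold change -0.72, SE 0.17, adjusted p = 0.00229). Per length of exon, *Ifnar1* and *Ifnar2* were at 8.85 and 12.54 RPKM and at 2.53 and 0.141 RPKM in d6PGCLCs and E12.5 PGCs. The separation between the chains of the type I receptor was therefore wider in E12.5 PGCs.

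*Ifnar2*, *Ifnar1* and *Ifngr2* are neighbours on chromosome 16, in a stretch of 191.2 kb from the start of *Ifnar2* (chr16:91372783-91405589, GRCm38) to the end of *Ifngr2* (chr16:91547059-91564007). This locus was looked at after the values of the receptors had been seen. It also holds *Il10rb*, which encodes a chain shared by the receptors for IL-10 and interferon λ, and which was 8.68-fold higher in d6PGCLCs (3.87 ± 1.24 against 0.461 ± 0.294 CPM, log2 fold change 3.12, SE 0.46, adjusted p = 3.33e-06). Its partner in the interferon λ receptor, *Ifnlr1*, which lies elsewhere, was higher as well (25.6 ± 4.42 against 15.8 ± 1.46 CPM, log2 fold change 0.70, SE 0.15, adjusted p = 0.00109). *Ifnar1* (chr16:91485032-91510523) lies between *Il10rb* and *Ifngr2* and was the only 1 of these 4 receptor genes to be lower. The non-coding gene *A930006K02Rik* within the stretch did not pass the test (log2 fold change 0.52). Over all genes, 16.1% were higher and 15.4% were lower, and over genes that exceeded 3 counts, 24.7% and 23.7%. Within 150 kb on either side of this stretch, 5 of 8 genes in the table were higher, 2 were lower and *Olig1* did not pass. The higher genes were *Olig2*, *Tmem50b* (54.6 against 14.4 CPM, log2 fold change 1.92), *Dnajc28* (5.34 against 0.946 CPM, log2 fold change 2.48), *Gart* and *Cryzl1*, and the lower genes were *Son* and *Donson*.

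**Figure D3:**
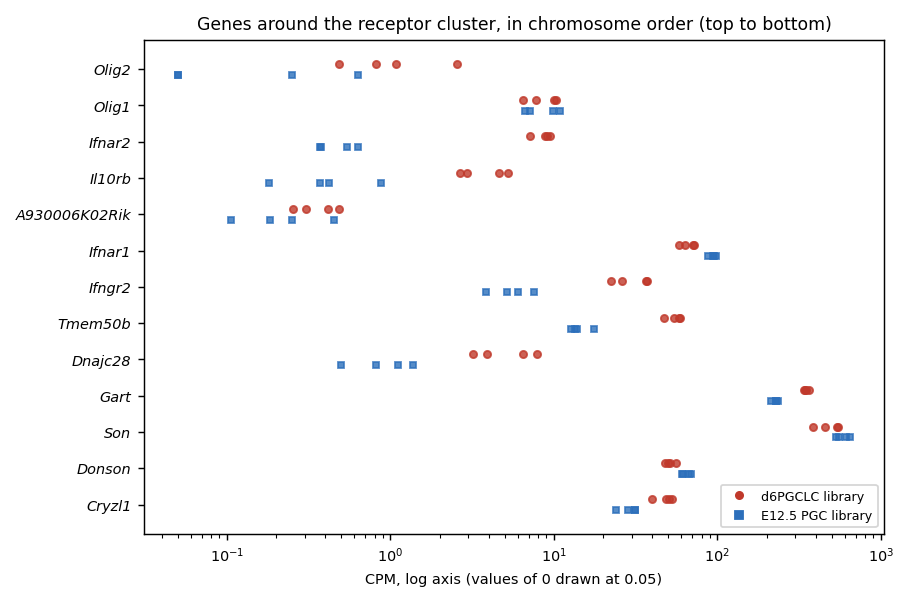
CPM (log axis) per library of the 13 genes of the table from 150 kb before *Ifnar2* to 150 kb after *Ifngr2*, in chromosome order from top to bottom, with d6PGCLC libraries as red circles and E12.5 PGC libraries as blue squares. Values of 0 are drawn at 0.05 CPM. Red points lie to the right for *Ifnar2*, *Il10rb*, *Ifngr2*, *Tmem50b* and *Dnajc28*, and to the left for *Ifnar1* between them.

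Downstream of the receptors, 1 of 5 transcription factors passed the test. Of all genes that exceeded 3 counts, 24.7% were higher and 23.7% were lower, and of all genes, 16.1% and 15.4%. STAT2 and IRF9 belong to the complex that binds the ISRE, while IRF1 and IRF2 act on similar elements and IRF7 amplifies type I interferon transcription. The factor that passed was *Stat2*, higher in d6PGCLCs, with 41.0, 27.8, 31.7 and 26.8 CPM in d6PGCLCs and 24.1, 22.9, 20.5 and 20.2 CPM in E12.5 PGCs (31.8 ± 6.46 against 21.9 ± 1.89 CPM, log2 fold change 0.54, SE 0.15, adjusted p = 0.00736). The d6PGCLC libraries were all above the E12.5 PGC libraries by a small margin, and the call was lost when E12.5 PGC replicates 2 and 4 were both left out (log2 fold change 0.52, adjusted p = 0.0533). *Irf9* measured 23.7, 26.5, 37.6 and 34.4 CPM in d6PGCLCs and 18.7, 29.2, 20.6 and 21.9 CPM in E12.5 PGCs, and the groups overlapped (log2 fold change 0.44, SE 0.17, adjusted p = 0.0511). *Irf9* shares exons with *Rnf31* on its strand. It passed the test in 6 of the 19 alternatives, among them DESeq2, and without d6PGCLC replicate 1 (log2 fold change 0.54, adjusted p = 0.00621), d6PGCLC replicate 2 (log2 fold change 0.49, adjusted p = 0.0437) or E12.5 PGC replicate 2 (log2 fold change 0.58, adjusted p = 0.012).

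*Irf1* was the most expressed of the factors, with 71.5 and 61.4 RPKM in d6PGCLCs and E12.5 PGCs. It measured 179.5, 168, 182 and 196 CPM in d6PGCLCs and 143, 168, 145 and 168 CPM in E12.5 PGCs, and the groups overlapped only at their margins (log2 fold change 0.22, SE 0.09, adjusted p = 0.0817). *Irf1* passed with a replicate block (log2 fold change 0.22, adjusted p = 0.042). It also passed with E12.5 PGC replicates 2 and 4 both left out (log2 fold change 0.33, adjusted p = 0.0372). *Irf7* and *Irf2* were near the limit of detection, between 0.242 and 1.16 CPM and between 0.204 and 1.53 CPM over the 8 libraries. All 4 d6PGCLC libraries were below all E12.5 PGC libraries for *Irf7*, without passing the test (log2 fold change -1.18, SE 0.51, adjusted p = 0.0755), and the groups overlapped for *Irf2* (log2 fold change 0.45, SE 0.64, adjusted p = 0.749). *Irf7* passed with the likelihood ratio test (log2 fold change -1.18, adjusted p = 0.032) and with an offset for exonic length (log2 fold change -1.29, adjusted p = 0.049).

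In a wider list of Janus kinases, STATs, inhibitors of the pathway and further receptor chains, 5 of 16 genes were higher (*Il10rb* and *Ifnlr1* among them), 3 were lower and 8 did not pass, against 16.1% higher and 15.4% lower over all genes. All 16 exceeded 3 counts in a library, and of all such genes 24.7% were higher and 23.7% were lower. *Socs3*, a feedback inhibitor of JAK-STAT signalling that LIF also induces, measured 108, 69.3, 61.7 and 47.4 CPM in d6PGCLCs and 2.74, 5.37, 1.11 and 0.812 CPM in E12.5 PGCs (log2 fold change 4.87, SE 0.36, adjusted p = 3.51e-10), so that the groups were far apart. Without E12.5 PGC replicate 2, the highest of its group, the log2 fold change was 5.60. The LIF in the medium of d6PGCLCs and the cell type cannot be told apart here. *Socs1*, the inhibitor best known for restraining interferon signalling, was lower in d6PGCLCs at 1.10 ± 0.354 against 2.41 ± 0.702 CPM (log2 fold change -1.14, SE 0.36, adjusted p = 0.0166), a call lost without d6PGCLC replicate 4 (log2 fold change -1.004, adjusted p = 0.0504) and without E12.5 PGC replicate 2 (log2 fold change -0.93, adjusted p = 0.0711). Of the kinases that serve the receptors, *Jak1* (131 ± 28.7 against 189 ± 38.8 CPM, log2 fold change -0.54, adjusted p = 0.00484) and *Jak2* (33.4 ± 5.87 against 48.1 ± 4.18 CPM, log2 fold change -0.53, adjusted p = 0.00328) were lower, and *Tyk2* did not pass (log2 fold change 0.07).

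**Figure D4:**
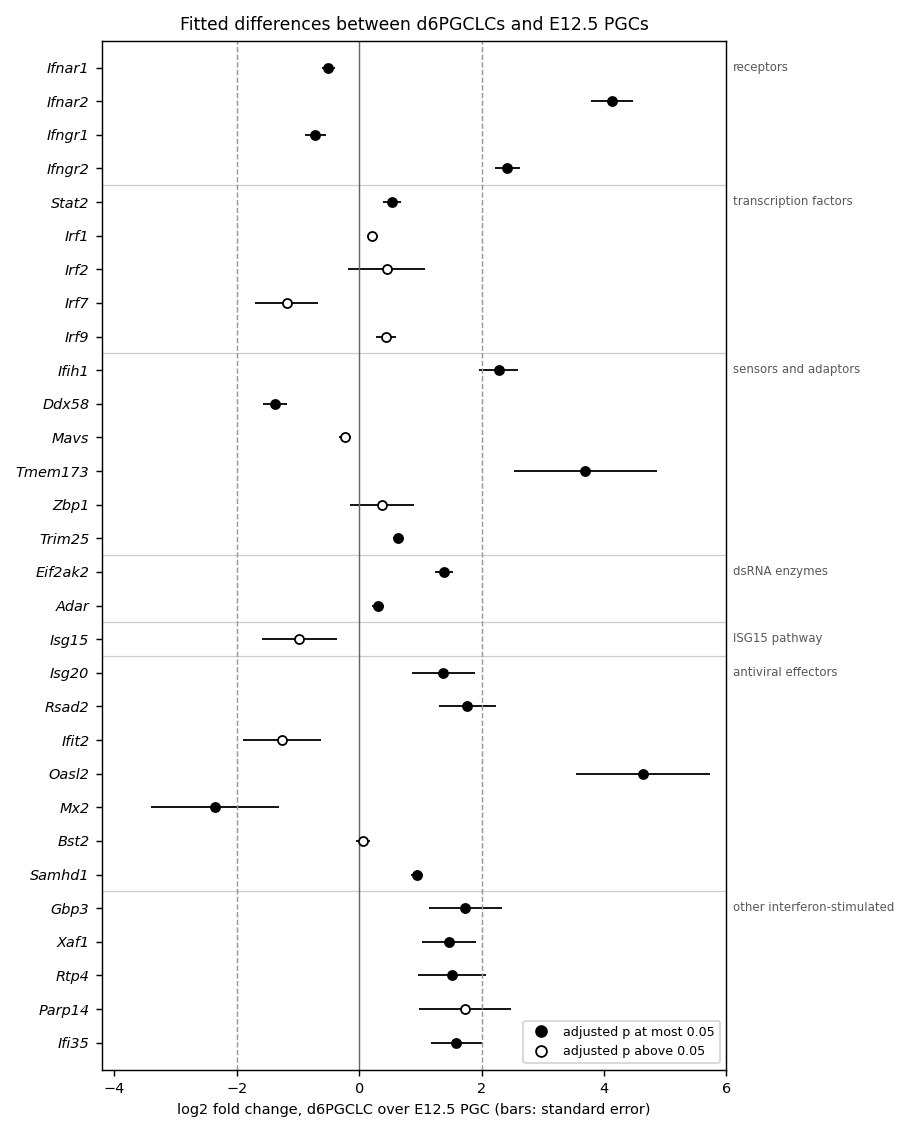
Fitted log2 fold change of d6PGCLCs over E12.5 PGCs with its standard error for the 30 genes over 3 counts, by role. Filled points passed an adjusted p of at most 0.05 and dashed lines mark log2 fold changes of -2 and 2. *Ifnar2* at 4.13 and *Oasl2* at 4.64 lie farthest to the right, and error bars are wide for genes near the limit of detection, such as *Mx2* and *Tmem173*.

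The cytosolic RNA sensors MDA5 and RIG-I moved in opposite directions. *Ifih1*, which encodes MDA5, the sensor of long double-stranded RNA, was 4.85-fold higher in d6PGCLCs, and *Ddx58*, which encodes RIG-I, the sensor of short RNA with a 5′ triphosphate, was 2.60-fold lower. *Ifih1* measured 3.57, 4.38, 4.56 and 4.97 CPM in d6PGCLCs and 1.25, 0.631, 0.830 and 0.903 CPM in E12.5 PGCs, with every d6PGCLC library above every E12.5 PGC library (4.37 ± 0.586 against 0.903 ± 0.257 CPM, log2 fold change 2.28, SE 0.32, adjusted p = 4.24e-06). *Ddx58* measured 8.68, 6.11, 8.63 and 8.85 CPM in d6PGCLCs and 28.8, 14.4, 21.5 and 19.3 CPM in E12.5 PGCs, and its groups were separate in the other direction (8.07 ± 1.31 against 21.0 ± 5.99 CPM, log2 fold change -1.38, SE 0.20, adjusted p = 1.11e-05). Both promoters hold ISRE letters after the start, shown above. The counted exons of *Ifih1* and *Ddx58* cover 58.9% and 45.6% of the length of their longest annotated coding transcript, so that reads on other exons do not enter these values. Both calls held in each of the 19 alternative analyses.

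MAVS is the mitochondrial adaptor through which both sensors signal, and TRIM25 is a ubiquitin ligase that acts on RIG-I. *Mavs* measured 68.5, 60.4, 60.3 and 59.8 CPM in d6PGCLCs and 73.5, 67.9, 73.6 and 78.1 CPM in E12.5 PGCs, the groups overlapped at d6PGCLC replicate 1, and the test was not passed (log2 fold change -0.24, SE 0.10, adjusted p = 0.0864). It passed in 7 of the 19 alternatives, among them without d6PGCLC replicate 1 (log2 fold change -0.28, adjusted p = 0.0309). *Trim25* measured 414, 356, 415 and 429 CPM in d6PGCLCs and 266, 246, 252 and 269.5 CPM in E12.5 PGCs, and the groups did not overlap (403 ± 32.2 against 258 ± 11.3 CPM, log2 fold change 0.64, SE 0.09, adjusted p = 3.78e-06). At 69.8 and 44.7 RPKM, *Trim25* was the third most expressed gene of the set in both cell types.

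*Tmem173* encodes STING, the adaptor for cytosolic DNA that is activated by the product of cGAS. It measured 0.255, 0.916, 0.830 and 1.21 CPM in d6PGCLCs and 0, 0.105, 0.0922 and 0 CPM in E12.5 PGCs, which corresponds to 31 counts against 2 and a ratio of 16.1 (exact 95% counting interval 4.1 to 139). No E12.5 PGC library was above the limit of detection, nor was d6PGCLC replicate 1 with 2 counts, so that the groups were separate there by a margin of 1 count (adjusted p = 0.00104). *Zbp1*, a sensor of Z-form nucleic acid, measured 0.638, 1.32, 0.996 and 1.21 CPM in d6PGCLCs and 0.1248, 1.68, 0.738 and 0.632 CPM in E12.5 PGCs. Its groups overlapped (log2 fold change 0.38, SE 0.52, adjusted p = 0.734), and its highest value was in E12.5 PGC replicate 2, the library with the high dissociation response. Without that library, its log2 fold change was 0.99 and the test was still not passed. *Dhx58*, which encodes the regulator LGP2, and *Tlr3*, the endosomal receptor for double-stranded RNA, had at most 2 and 1 counts in any library.

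Of 32 further genes of nucleic acid sensing, 7 were higher, 11 were lower and 14 did not pass, against 16.1% higher and 15.4% lower over all genes and 24.7% and 23.7% over genes that exceeded 3 counts. *Aim2*, which assembles an inflammasome on cytosolic DNA, was 8.02-fold lower in d6PGCLCs, with 2.81, 4.38, 1.99 and 2.42 CPM in d6PGCLCs and 15.4, 26.8, 23.4 and 27.2 CPM in E12.5 PGCs (log2 fold change -3.004, SE 0.24, adjusted p = 2.29e-09). *Cgas* (listed also as *Mb21d1*), the DNA sensor upstream of STING, was lower too, with 0, 0.204, 0.166 and 0.242 CPM in d6PGCLCs and 2.00, 1.16, 1.29 and 1.35 CPM in E12.5 PGCs (log2 fold change -3.09, SE 0.68, adjusted p = 0.000169). *Tmem173* and *Cgas*, which act in sequence, thus differed in opposite directions. For *Cgas*, no d6PGCLC library was above the limit of detection (6 counts over the group, against 56 in E12.5 PGCs). For *Tmem173*, no E12.5 PGC library was above it. *Tbkbp1* and *Tbk1*, an adaptor and the kinase that phosphorylates IRF3, were lower at 1.25 ± 0.574 against 6.52 ± 2.46 CPM and 57.5 ± 6.14 against 78.2 ± 6.71 CPM (log2 fold changes -2.37 and -0.44, adjusted p = 9.02e-06 and 0.00297), and *Tbk1* lost its call when E12.5 PGC replicates 2 and 4 were both left out (log2 fold change -0.37, adjusted p = 0.061). *Dhx33*, an RNA helicase, was lower as well at 22.2 ± 2.16 against 46.1 ± 3.28 CPM (log2 fold change -1.06, SE 0.12, adjusted p = 7.23e-07).

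The enzymes that act on double-stranded RNA were both higher in d6PGCLCs, as were 16.1% of all genes and 24.7% of genes that exceeded 3 counts. *Eif2ak2*, which encodes PKR, the kinase that halts translation upon binding double-stranded RNA, measured 28.5, 27.2, 26.2 and 25.9 CPM in d6PGCLCs and 12.2, 10.2, 9.96 and 8.94 CPM in E12.5 PGCs. The groups were well apart and the libraries of each group were tight (27.0 ± 1.14 against 10.3 ± 1.38 CPM, log2 fold change 1.39, SE 0.15, adjusted p = 1.94e-07). *Adar*, which encodes the deaminase that edits adenosine to inosine in double-stranded RNA and thereby restrains MDA5, measured 133, 104, 107 and 112 CPM in d6PGCLCs and 94.6, 92.1, 93.0 and 86.4 CPM in E12.5 PGCs. The difference was small (114 ± 13.3 against 91.5 ± 3.57 CPM, log2 fold change 0.31, SE 0.10, adjusted p = 0.0181). It lost its call without d6PGCLC replicate 1, the highest library (log2 fold change 0.23, adjusted p = 0.0569), and without E12.5 PGC replicate 4, the lowest (log2 fold change 0.29, adjusted p = 0.0703).

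*Isg15*, a ubiquitin-like modifier that is among the strongest interferon targets in most tissues, was near the limit of detection in both cell types. It measured 0, 0.305, 0.830 and 0.606 CPM in d6PGCLCs and 0.499, 0.631, 1.11 and 1.35 CPM in E12.5 PGCs, the groups overlapped, and the test was not passed (log2 fold change -0.97, SE 0.61, adjusted p = 0.254). *Usp18*, which removes ISG15 from proteins and blocks IFNAR2, had no count in d6PGCLCs and 2 counts over the 4 E12.5 PGC libraries. The promoter of *Isg15*, printed above, held the most ISRE letters of the windows shown.

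Among 9 genes of antiviral effectors in the table, 4 were higher in d6PGCLCs, *Mx2* was lower and 4 did not pass. Over all genes, 16.1% were higher and 15.4% were lower, and over genes that exceeded 3 counts, 24.7% and 23.7%. The effectors at a substantial level were *Bst2* and *Samhd1*. *Samhd1*, whose product depletes deoxynucleotides and restrains reverse transcription, measured 178, 194, 192 and 251 CPM in d6PGCLCs and 106, 106, 102 and 109.8 CPM in E12.5 PGCs, and the groups did not overlap (204 ± 32.0 against 106 ± 3.22 CPM, log2 fold change 0.95, SE 0.10, adjusted p = 2.19e-07). *Bst2* measured 133, 143, 126 and 108 CPM in d6PGCLCs and 96.8, 140.3, 122 and 128 CPM in E12.5 PGCs, the groups overlapped, and the difference was 0.07 on the log2 scale (SE 0.11, adjusted p = 0.838).

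*Oasl2*, which encodes an oligoadenylate synthetase-like protein, measured 1.92, 0.814, 2.07 and 1.46 CPM in d6PGCLCs and 0, 0.105, 0.0922 and 0 CPM in E12.5 PGCs. This corresponds to 60 counts against 2, a ratio of 31.2 (exact 95% counting interval 8.26 to 263, adjusted p = 1.64e-05; log2 fold change 2.79 with a prior count of 2), and no E12.5 PGC library was above the limit of detection. *Rsad2*, which encodes viperin, measured 1.53, 2.04, 2.82 and 3.76 CPM in d6PGCLCs and 0.499, 1.37, 0.184 and 0.903 CPM in E12.5 PGCs (2.54 ± 0.972 against 0.738 ± 0.512 CPM, log2 fold change 1.77, SE 0.46, adjusted p = 0.00354). The groups were separate by a small margin, with the highest E12.5 PGC value in replicate 2, and the log2 fold change without that library was 2.23 (adjusted p = 0.00127), and without E12.5 PGC replicates 2 and 4 it was 2.93. *Isg20*, a 3′ to 5′ exonuclease, measured 2.04, 0.814, 0.913 and 1.46 CPM in d6PGCLCs and 0.624, 0.421, 0.184 and 0.722 CPM in E12.5 PGCs (log2 fold change 1.38, SE 0.51, adjusted p = 0.0381). Its call was lost without d6PGCLC replicate 1 or 4 (log2 fold change 1.09, adjusted p = 0.136 and log2 fold change 1.31, adjusted p = 0.0823), and without E12.5 PGC replicate 2 or 3 (log2 fold change 1.32, adjusted p = 0.0757 and log2 fold change 1.09, adjusted p = 0.141).

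*Mx2* and *Mx1* encode dynamin-like GTPases, and *Ifit2* and *Ifit3* encode proteins that bind foreign RNA. *Mx2* had 3 counts in d6PGCLCs and 18 in E12.5 PGCs, a ratio of 5.77 in favour of E12.5 PGCs (exact 95% counting interval 1.69 to 30.6, adjusted p = 0.0396). Its adjusted p ranged from 0.0147 to 0.592 over the alternatives, and the call was lost without any 1 of d6PGCLC replicates 2, 3 and 4 or E12.5 PGC replicates 1, 2 and 4, with log2 fold changes between -2.49 and -2.04. *Ifit2* measured 0.128, 0.509, 0.249 and 0.121 CPM in d6PGCLCs and 0.873, 0.737, 0.461 and 0.542 CPM in E12.5 PGCs, and the groups overlapped narrowly (log2 fold change -1.26, SE 0.64, adjusted p = 0.129). *Ifit3* and *Mx1* did not exceed 1 and 2 counts in any library.

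Of 6 other interferon-stimulated genes, 4 were higher in d6PGCLCs, all of them at low levels. By comparison, 16.1% of all genes were higher, and 24.7% of genes that exceeded 3 counts. *Ifi35*, which encodes a partner of the protein NMI, measured 2.04, 1.83, 1.74 and 4.61 CPM in d6PGCLCs and 0.624, 0.842, 0.645 and 1.17 CPM in E12.5 PGCs (2.56 ± 1.37 against 0.821 ± 0.254 CPM, log2 fold change 1.58, SE 0.42, adjusted p = 0.0039). *Gbp3*, a guanylate-binding GTPase, measured 0.766, 0.611, 1.24 and 2.67 CPM in d6PGCLCs and 0.499, 0.526, 0.0922 and 0.451 CPM in E12.5 PGCs (log2 fold change 1.74, SE 0.60, adjusted p = 0.0218). Both were highest in d6PGCLC replicate 4, which set the spread of that group. *Rtp4*, an interferon-induced transmembrane protein gene, measured 1.02, 0.713, 0.747 and 1.70 CPM in d6PGCLCs and 0.1248, 0.316, 0.461 and 0.451 CPM in E12.5 PGCs (log2 fold change 1.51, SE 0.55, adjusted p = 0.0318), and *Xaf1*, whose product binds the apoptosis inhibitor XIAP, measured 1.92, 1.02, 1.66 and 1.46 CPM in d6PGCLCs and 0.624, 0.737, 0.369 and 0.451 CPM in E12.5 PGCs (log2 fold change 1.47, SE 0.44, adjusted p = 0.00998). For each of these 4 genes, all d6PGCLC values exceeded all E12.5 PGC values, a pattern that 15.4% of all genes showed.

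Replicate 4 of the d6PGCLCs was the highest of the 8 libraries for *Ifi35*, *Gbp3*, *Rtp4*, *Rsad2* and *Samhd1*. It also had the highest sum of the 9 gonadal somatic markers (12.7 CPM, against 0.747 to 4.58 CPM in the other d6PGCLC libraries and 2.44 to 5.79 CPM in E12.5 PGCs), most of it *Col1a1* at 11.8 CPM. *Col1a1* was the only 1 of the 9 markers to be higher in d6PGCLCs, whereas *Gata4*, *Wt1*, *Emx2* and *Pdgfra* were lower, with 0 counts of *Emx2* and 1 of *Pdgfra* in d6PGCLCs against 16 and 15 in E12.5 PGCs. Without this library, *Ifi35* (log2 fold change 1.15, adjusted p = 0.0335), *Rsad2* (log2 fold change 1.54, adjusted p = 0.0156) and *Samhd1* (log2 fold change 0.83, adjusted p = 4.50e-07) passed the test. *Gbp3* (log2 fold change 1.19, adjusted p = 0.155) and *Rtp4* (log2 fold change 1.19, adjusted p = 0.146) did not. *Gbp3* also failed without E12.5 PGC replicate 3 (log2 fold change 1.39, adjusted p = 0.0825), and *Rtp4* without E12.5 PGC replicate 1 (log2 fold change 1.29, adjusted p = 0.0929) or 2 (log2 fold change 1.47, adjusted p = 0.0634). With a replicate block, *Rtp4* failed as well (log2 fold change 1.53, adjusted p = 0.0537). The same held with E12.5 PGC replicates 2 and 4 both left out (log2 fold change 1.67, adjusted p = 0.0964).

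*Parp14*, an ADP-ribosyltransferase gene, measured 0.510, 0.713, 0.249 and 0.727 CPM in d6PGCLCs and 0.250, 0.105, 0.0922 and 0.180 CPM in E12.5 PGCs and did not pass the test (log2 fold change 1.73, SE 0.75, adjusted p = 0.0594). It passed with the likelihood ratio test (log2 fold change 1.73, adjusted p = 0.0257) and without d6PGCLC replicate 3 (log2 fold change 2.00, adjusted p = 0.038). Its counted exons span 660 bases, or 8.9% of its longest annotated coding transcript, so that its value rests on a small part of the gene. *Gbp2*, a relative of *Gbp3* with ISRE letters in its promoter, had 1 count over all libraries.

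In a wider list of 53 interferon-stimulated genes, which was written with earlier results of these libraries known, 17 were higher in d6PGCLCs, 7 were lower and 29 did not pass, against 16.1% higher and 15.4% lower over all genes, and the median log2 fold change of the 32 that exceeded 3 counts was 0.88. Among all genes that exceeded 3 counts, 24.7% were higher and 23.7% were lower. *Ifi30*, a lysosomal thiol reductase gene, measured 86.5, 81.8, 78.5 and 75.5 CPM in d6PGCLCs and 17.7, 22.6, 19.5 and 20.5 CPM in E12.5 PGCs (log2 fold change 2.00, SE 0.11, adjusted p = 2.08e-11), and *Apobec3*, a cytidine deaminase gene that restricts retroelements, measured 34.3, 27.9, 19.2 and 15.6 CPM in d6PGCLCs and 3.37, 3.05, 3.96 and 3.43 CPM in E12.5 PGCs (log2 fold change 2.80, SE 0.23, adjusted p = 4.21e-09). Both were separate between the groups by a wide margin. *Ifitm3*, which is both an interferon target and a long-known surface marker of early PGCs, was higher at 654 ± 55.0 against 293 ± 48.5 CPM (log2 fold change 1.16, SE 0.11, adjusted p = 2.16e-08). In the other direction, *Tdrd7*, whose product belongs to germ granules, was lower at 11.5 ± 2.65 against 53.2 ± 15.95 CPM (log2 fold change -2.22, SE 0.20, adjusted p = 1.56e-08).

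The interferons themselves were not detected above the limit. Of 18 ligand genes in the table, among them *Ifnb1*, *Ifng*, 11 numbered *Ifna* genes, *Ifne*, *Ifnk* and *Ifnl3*, none exceeded 3 counts in any library. *Ifnl2* had 10 counts over the d6PGCLC libraries and 1 over the E12.5 PGC libraries (adjusted p = 0.0443), with 3 counts or fewer in each. Poly(A) libraries at this depth do not show whether fewer molecules were present. Only reads that mapped to a single position were counted, so that any reads shared by near-identical ligand genes would be missing here.

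**Figure D5:**
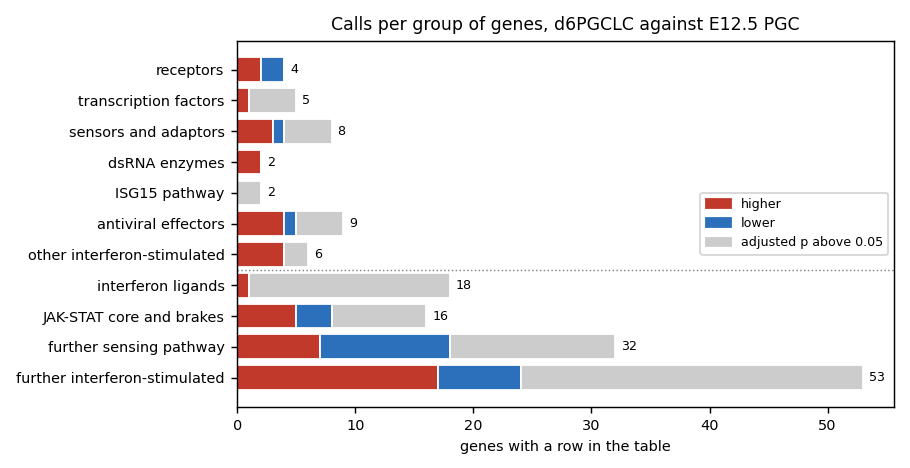
Number of genes with a row in the table (horizontal axis) in each role group of the interferon and sensing genes (above the dotted line) and in the wider lists (below it), split into genes higher in d6PGCLCs (red), lower (blue) and with an adjusted p above 0.05 (grey), with the total at the end of each bar. The single red unit among the interferon ligands is *Ifnl2*, which had 3 counts or fewer in every library, and lower genes outnumber higher genes only in the further sensing pathway list, with 11 against 7.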

How the data were processed

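RNA-seq libraries of 4 d6PGCLC and 4 E12.5 PGC pools were analysed. The values deposited by the authors are counts per gene, in whole reads that mapped to a single position, and were not normalized. Per the submitters' processing notes, reads were aligned with STAR to GRCm38 (mm10). According to the methods, QuasR counted reads on the exons of 1 randomly chosen isoform of each gene, and genes with overlapping promoters were removed at random, which can remove a gene or leave most of its exons uncounted. Whether the counting used strand is not given in the sources used here, and reads of near-identical paralogs were not counted. The oocyte libraries of the study were not used here.

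Entrez identifiers were matched to RefSeq symbols (21907 of 21950 genes). Counts were normalized with TMM and fitted in R 4.3.3 with the quasi-likelihood functions of edgeR 4.0.16 (glmQLFit, glmQLFTest), using a prior count of 0.125 and a single term for cell type, over all genes and without a filter on low counts, and p-values were adjusted by the Benjamini-Hochberg method. CPM used TMM-scaled library sizes. Standard errors combine the information of the fit with the quasi-likelihood variance. For interferon and sensing genes with 1 to 3 counts over the libraries of a group and more than 12 over those of the other, the ratio of summed counts is given with an exact 95% interval. No pair of libraries of a group agreed within sampling noise. The steps were tested on simulated data.

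The members, the gene lists and the genes of each list were chosen with earlier results of these data known. Library values are given for members with an adjusted p of at most 0.05, a log2 fold change of 1 or more in either direction and a mean of at least 1 CPM in a group, and for the 8 members with the highest RPKM. Other members are given as well, since the set is small. From each wider list at most 4 genes with the smallest adjusted p under the same limits are named, with *Jak1*, *Jak2*, *Tyk2*, *Tbk1* and *Cgas*. The results for 2 genes are not reported here. The receptor locus, *Ifnl2*, *Ifnlr1* and marker genes were named after their values had been seen. Alternatives were DESeq2 1.42.0, edgeR's likelihood ratio test, a replicate block, scaling by library size, by upper quartile or by DESeq2 size factors, a prior count of 2, leaving out each library, and filters on low counts (filterByExpr, or CPM above 1 in 3 or more samples). Leaving out E12.5 PGC replicates 2 and 4 together and an exonic length offset (loess, span 0.5) were added after seeing the data.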

Additional observations from a re-analysis of the deposited data

Results flagged for a closer look

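In 66 sets of 4 libraries with a mean of at least 1 CPM, 3 values stood apart from the other 3 libraries by Dixon's criterion for 4 values, where chance gives about 1 in 20. *Ddx58* was low in d6PGCLC replicate 2, at 6.11 CPM, with the other d6PGCLC libraries between 8.63 and 8.85 CPM. *Mavs* was high in d6PGCLC replicate 1, at 68.5 CPM, with the others between 59.8 and 60.4 CPM. *Ifi35* was high in d6PGCLC replicate 4, at 4.61 CPM, with the others between 1.74 and 2.04 CPM.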

How the results depend on the processing

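Of the 20 genes that passed the test, 14 kept their direction and call in every one of 19 alternatives that gave them a value, and 6 (*Adar*, *Gbp3*, *Isg20*, *Mx2*, *Rtp4* and *Stat2*) lost the call in at least 1. With each library left out, 13 to 17 genes were higher and 3 to 5 were lower, and with a log2 fold change of 2 or more required in either direction, 5 to 6 were higher and 0 to 1 lower. The median log2 fold change was 0.58 to 0.828 (0.828 without E12.5 PGC replicate 2) and 0.806 without E12.5 PGC replicates 2 and 4. The filter filterByExpr, which tested fewer genes, left 10 higher genes, 3 of them at the larger fold. No gene was lower at the larger fold under DESeq2, filterByExpr, the filter on CPM above 1, the replicate block, a prior count of 2, or with E12.5 PGC replicates 2 and 4 left out (0 in each case). The log2 fold change changed sign for genes that had not passed the test, namely *Irf2* (-0.233 to 0.765 with a library left out, lowest without d6PGCLC replicate 1), *Bst2* (-0.026 to 0.145, lowest without E12.5 PGC replicate 1) and *Tyk2* (-0.011 to 0.152, lowest without d6PGCLC replicate 3, and -0.044 with the length offset). The cause was not tested. With the length offset, 16 genes were higher and 6 lower, *Irf7* and *Mavs* being added to the lower genes. Calls over the whole table moved as well. They were 3532 higher and 3387 lower in the main fit, and 3509 and 3828 with the length offset. With a library left out, they ranged from 3093 to 3636 higher and from 2885 to 3430 lower. With filterByExpr, they were 3297 and 3240 of 11472 genes.

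Libraries with the same replicate number correlated at 0.234, 0.079, -0.011 and 0.022 in their deviations, and only numbers 1 and 4 matched best with their own number. So few values cannot decide whether libraries of the same number were handled together. With a replicate block, 17 genes of the set were higher and 3 lower, and 3708 and 3562 genes of the whole table (3532 and 3387 without the block). *Irf1* and *Irf9* gained the call under the block, and *Rtp4* and *Mx2* lost it. There were 6 genes with 3 counts or fewer in every library, and none of these passed the test.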
